A study of Homo sapiens with 24 samples.

Results

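The 745 regions described here are stretches of H4K20me3 that lay under broad peaks in every control library and in every library of SUV420H1-depleted cells, but under no peak in any library of cells given the inhibitor A-196. They were chosen from the peak lists themselves. On a grid of 1 kb bins, a bin qualified when it was covered in all 7 control libraries (3 DMSO and 4 siNC) and all 4 siSUV420H1 libraries and in none of the 3 A-196 libraries. Adjacent bins were joined and runs of 5 kb or more were kept. The regions add up to 5410 kb, beside 5960 regions and 85586 kb of 5 kb or more that were covered in all 7 controls. The presence and absence of peaks that define the regions are therefore a description and not a finding, and no test of them is given.

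The cells were HN-SCC-151, a line of HPV-negative squamous cell carcinoma of the head and neck, labelled wild type in all groups. They were kept for 6 days in DMSO or with A-196 at 2.5 µM, or for the same time with control siRNAs (siNC) or siRNAs against SUV420H1 (siSUV420H1). H4K20me3 was profiled by CUT&RUN, in which an antibody-tethered nuclease releases the DNA of marked nucleosomes, from 500000 cells per reaction. Since the design text speaks of 3 dishes per condition and each siRNA group has 4 libraries, some libraries may come from 1 dish, and the spread within a group may be partly technical.

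Trimethylation of lysine 20 on histone H4 is a mark of compacted, silent chromatin. It is laid down on monomethylated H4K20 by SUV420H1 (gene symbol KMT5B) and its paralog SUV420H2 (KMT5C), which is drawn to heterochromatin by HP1 proteins bound to H3K9me3. A-196 blocks the activity of both enzymes, whereas the siRNAs are directed at SUV420H1 alone. Regions lost with the one and kept with the other are thus of interest as candidate sites of upkeep by SUV420H2. Whether SUV420H2 maintained them was not tested. The RNA and protein of both enzymes were not analysed here, and neither gene (KMT5B on chromosome 11, 68154863 to 68213648, and KMT5C on chromosome 19, 55339876 to 55348121) had a peak in any of the 14 libraries, so the peak lists check neither the inhibition nor the depletion. The inhibitor and the siRNAs were also used in separate arms with their own controls and their own IgG library, and agent and arm cannot be told apart.

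The libraries held 8430 to 14675 peaks over 79.6 to 193 Mb of hg38, with no read counts or scores. The depth behind a peak is unknown, and lost means here that no peak was called, which weak signal would also give. Of 10 squamous markers, 2 to 3 had a peak within the gene in each DMSO library, TP63 and EGFR among them in every one. Peaks of a silencing mark do not measure expression, so these lists do not check the cell type.

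Few of the regions reached a promoter, and those that did are shown first because a silencing mark bears most directly on a gene at its start. A promoter, from the RefSeq table of GRCh38.p14 (250 bases before to 50 after a start site), lay wholly inside a region for 9 protein-coding genes and 19 other genes. The stretches below are the 250 bases upstream of 6 of the coding start sites, 5′ to 3′ on the gene's strand, with CpG dinucleotides in capitals, since CpG-rich starts are typical of broadly used promoters. They were taken as pairs to span CpG-rich, intermediate and CpG-poor starts.
ZSCAN30: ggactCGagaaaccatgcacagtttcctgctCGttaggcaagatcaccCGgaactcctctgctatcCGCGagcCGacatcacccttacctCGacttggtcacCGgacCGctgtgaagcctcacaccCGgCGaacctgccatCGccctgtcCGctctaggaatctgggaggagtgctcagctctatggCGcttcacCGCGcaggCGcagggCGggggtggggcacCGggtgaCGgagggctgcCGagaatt
SNRPB2: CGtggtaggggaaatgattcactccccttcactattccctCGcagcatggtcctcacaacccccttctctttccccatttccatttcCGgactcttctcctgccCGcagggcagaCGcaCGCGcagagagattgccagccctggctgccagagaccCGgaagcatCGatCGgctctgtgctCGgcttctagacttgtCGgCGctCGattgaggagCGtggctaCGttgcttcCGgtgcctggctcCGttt
USF1: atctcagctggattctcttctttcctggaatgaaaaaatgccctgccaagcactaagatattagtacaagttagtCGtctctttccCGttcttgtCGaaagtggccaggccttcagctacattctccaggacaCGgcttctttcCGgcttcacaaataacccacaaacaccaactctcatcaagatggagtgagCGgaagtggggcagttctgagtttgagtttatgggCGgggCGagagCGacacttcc
KRTAP2-3: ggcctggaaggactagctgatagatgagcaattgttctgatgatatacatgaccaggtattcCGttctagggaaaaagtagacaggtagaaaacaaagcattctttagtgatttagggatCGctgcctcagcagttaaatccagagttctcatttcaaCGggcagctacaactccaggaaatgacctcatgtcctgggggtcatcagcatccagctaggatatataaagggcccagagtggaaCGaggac
KRTAP2-2: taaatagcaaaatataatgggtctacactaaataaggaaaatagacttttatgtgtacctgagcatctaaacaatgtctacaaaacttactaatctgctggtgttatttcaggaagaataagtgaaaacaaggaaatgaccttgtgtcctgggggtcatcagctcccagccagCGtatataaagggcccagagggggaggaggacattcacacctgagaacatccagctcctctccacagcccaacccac
KCTD4: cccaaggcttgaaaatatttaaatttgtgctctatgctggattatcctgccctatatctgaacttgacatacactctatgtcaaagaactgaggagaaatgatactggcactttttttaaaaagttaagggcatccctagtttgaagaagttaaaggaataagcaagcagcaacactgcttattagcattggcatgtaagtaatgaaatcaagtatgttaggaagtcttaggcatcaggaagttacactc
The stretch of ZSCAN30, a SCAN-domain zinc finger gene, lies at chr18:35290230-35290479 on the minus strand and holds 21 CpGs. That of SNRPB2, which encodes a protein of the U2 small nuclear ribonucleoprotein of the spliceosome, lies at chr20:16729776-16730025 on the plus strand and holds 18. USF1, a transcription factor that binds E-boxes, has 9 CpGs at chr1:161045978-161046227 on the minus strand. The neighbouring keratin-associated protein genes KRTAP2-3 (chr17:41060115-41060364, minus strand) and KRTAP2-2 (chr17:41055231-41055480, minus strand), whose products cross-link hair keratins, have 4 and 1. KCTD4 (chr13:45201046-45201295, minus strand) has none.

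Each of these starts was covered in all 11 control and siSUV420H1 libraries and uncovered in all 3 A-196 libraries, as the choice requires. The region over the SNRPB2 start (chromosome 20, 16725001 to 16732000) was a small peak of its own: the peak around it measured 8, 8 and 7 kb in the DMSO libraries, 8, 9, 8 and 8 kb in the siNC libraries and 9 kb in each siSUV420H1 library. The nearest A-196 peak lay 227, 21 and 126 kb away in the 3 replicates, so it stood alone. USF1 was similar, with an 8 kb region (chromosome 1, 161044001 to 161052000) inside peaks of 8 to 9 kb in DMSO cells, 10 to 12 kb with siNC and 10 to 12 kb with siSUV420H1, though an A-196 peak lay 5 kb away in replicate 2. That region also overlaps ARHGAP30, and the mark of neighbours under one peak cannot be told apart. ZSCAN30 differed, since its peak was far wider after the depletion: 6, 13 and 15 kb in DMSO cells, 17 to 18 kb with siNC and 50, 40, 52 and 40 kb with siSUV420H1. A-196 peaks remained 9, 10 and 2 kb from its region. The other coding starts inside regions belonged to PRIM2, the large subunit of DNA primase, to TRIM44, to SPMIP3, a sperm microtubule protein, and to a second start of USF1.

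The KRTAP2-2 and KRTAP2-3 stretches share a run of 18 bases that includes a TATA box, shown here with the TATAAA in capitals because both starts lie in a single 9 kb region (chromosome 17, 41054001 to 41063000).
shared run: taTATAAAgggcccagag
It begins at base 176 of the KRTAP2-2 stretch and base 221 of the KRTAP2-3 stretch, counted from the 5′ end. The genes of this family are close copies, so their peaks are uncertain where reads could not be placed uniquely.

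The 10 coding start sites inside regions had a median of 8.5 CpGs per 300 bases, against 21 for all 22199 coding starts of the table. The median was 4 at the 43 coding starts in regions lost in both arms and 20 at the 142 in regions covered in all 14 libraries. At the 394 coding starts in all regions covered in the 7 controls it was 12. Searched on both strands, the core of the interferon-stimulated response element, which interferon regulatory factors bind, was found at 40% of the 10 starts (the second start of USF1, SPMIP3, TRIM44 and SNRPB2). It was found at 10% of the 20 other starts inside the regions, at 4.93% of the coding starts in regions covered in all libraries, at 18.6% of the coding starts in regions lost in both arms, at 8.63% of those in all control regions and at 3.17% of all coding starts. TATAAA was found at 20% and 9.47%, CCAAT at 30% and 34.7%, and GGGCGG, the core of GC boxes, at 30% and 56.3%. CANNTG, the E-box, which reads the same on both strands, was found at 60% and 65.1%, and TGACGTCA, which is also its own reverse complement, at 0% and 2.26%. A match describes letters in these windows and not a bound site, the 10 starts include 2 of one gene, and no test was made. With 9 coding genes in 5410 kb, the regions held 1.66 coding promoters per Mb, against 4.54 in regions lost in both arms, 5.09 in regions covered in all libraries and 3.87 in all regions covered in the 7 controls. The median lengths of these sets were 7, 7, 9 and 10 kb, and a promoter had to lie wholly inside a region. In regions covered in every A-196 and in no siSUV420H1 library the value was 1.26, from 1 coding gene.

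The regions were short. Their median length was 7 kb, the longest measured 26 kb, and 83 reached 10 kb. At the length threshold, 198 regions were exactly 5 kb and 130 further runs of 4 kb fell just short. The qualifying bins made up 9.62% of the 86547 bins covered in all 7 controls before the length rule and 6.25% after it. By comparison, 1.71% of those bins showed the mirror pattern, covered in every A-196 and in no siSUV420H1 library. A further 13.2% were covered in no treated library and 28.4% in every one. As regions of 5 kb or more, these were 124 mirror regions over 792 kb, 965 regions lost in both arms over 7492 kb and 1909 regions covered in all 14 libraries over 23794 kb.

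These counts depend on how alike the libraries of each group were. Of the bins covered in all controls, the A-196 libraries covered 48.2%, 40.1% and 64.9%, and the siSUV420H1 libraries 70.2%, 67.6%, 69.5% and 67.3%. The mean was 51.1% ± 12.6 (SD, n = 3) with A-196 and 68.6% ± 1.41 (SD, n = 4) with siSUV420H1, a difference of -17.6 percentage points. The rule used this contrast, so no test of it is given. Over the whole genome, peaks covered 148 Mb ± 4.29 in DMSO cells and 96.9 Mb ± 15.0 in A-196 cells (SD, n = 3), and 188 Mb ± 5.49 with siNC and 124 Mb ± 4.70 with siSUV420H1 (SD, n = 4), so both treated groups were below their controls in total. The siSUV420H1 libraries were nearly alike, while A-196 replicate 3 covered more than the other 2. All 4 siSUV420H1 libraries together covered 60.8% of the bins and the 3 A-196 libraries together 32.3%, so the mirror pattern had fewer bins to start from. Of the bins without a peak in any A-196 library, 33.1% were covered in all 4 siSUV420H1 libraries and 45.3% in none of them. Of the bins without a peak in any siSUV420H1 library, 7.30% were covered in all 3 A-196 libraries.

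To measure the pattern in libraries that had no part in the choice, the regions were rebuilt 7 times, each time without 1 treated library, and looked up in the library left out. Regions chosen without A-196 replicate 1 were covered there over 12.3% of their length, against 63.6% for all bins covered in the controls and in siSUV420H1 cells. For A-196 replicate 2 the values were 6.31% and 53.3%. For A-196 replicate 3 they were 45.0% and 80.1%. Coverage of the regions was thus below the background of the same library in 3 of 3 A-196 libraries, but replicate 3 still had peaks over a large part of the regions that the other 2 lacked. Without it, 1510 regions over 11879 kb qualified in place of 745 over 5410 kb. For the siSUV420H1 libraries, regions chosen from the other 3 were covered over 96.5%, 94.9%, 95.7% and 94.9% of their length, against 42.6% to 44.8% for all control bins without an A-196 peak. The background bins were not chosen on the other libraries of the left-out group, whereas the regions were. Likeness between the libraries of a group would alone give these directions. The values thus describe how far the left-out library followed the others, and no test was made on them.

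**Figure D1:**
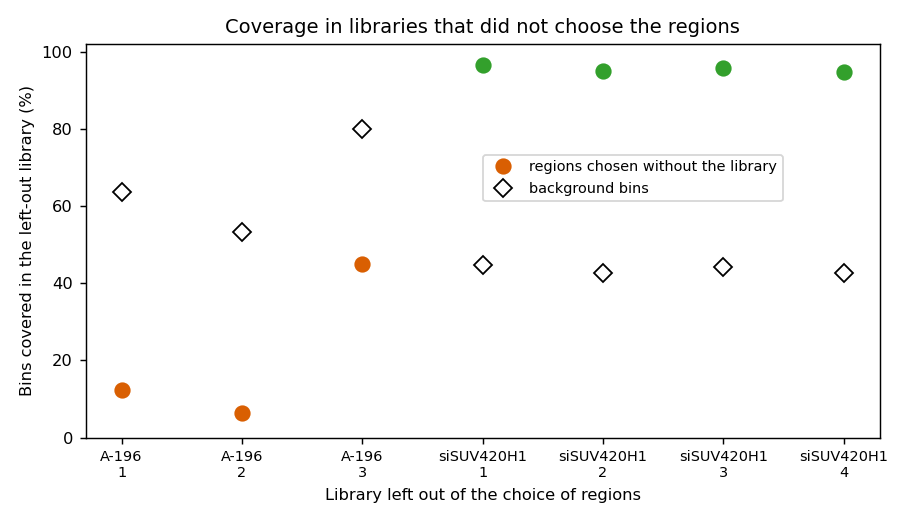
Share of 1 kb bins covered (y axis, %) in each treated library (x axis) when the regions were chosen without that library. Filled points are the regions, orange for A-196 and green for siSUV420H1, and open diamonds are background bins: covered in all controls and all siSUV420H1 libraries for A-196, and in all controls and no A-196 library for siSUV420H1. The A-196 points sit at 12.3%, 6.31% and 45.0% and the siSUV420H1 points between 94.9% and 96.5%.

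The regions did not all stand apart from what remained with A-196. A peak of at least 1 A-196 library touched the edge of 230 regions (30.9%), and 337 (45.2%) had one within 5 kb. At the other end, 164 regions lay 50 kb or more from every A-196 peak. By library, the median distance to the nearest peak was 40 kb in replicate 1, 33 kb in replicate 2 and 18 kb in replicate 3, and 7.79%, 7.38% and 22.8% of the regions were touched. Among regions lost in both arms, the medians were 31, 32 and 14 kb and the touched shares 9.95%, 5.91% and 18.1%.

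In 403 of the 745 regions (54.1%), the DMSO peaks that held the region contained no A-196 peak at all. The choice of regions favours this, and the share in the compared sets is not given here, so nothing is read from it. In 64 regions (8.59%), each of the 3 DMSO peaks around the region was covered over 50% or more by a single A-196 library. That A-196 library could differ between the DMSO peaks. Such a region was an uncovered stretch beside a large remaining part of the same domain. The share in the compared sets is not given for this count either. The plot of distances shows the 3 replicates apart.

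**Figure D2:**
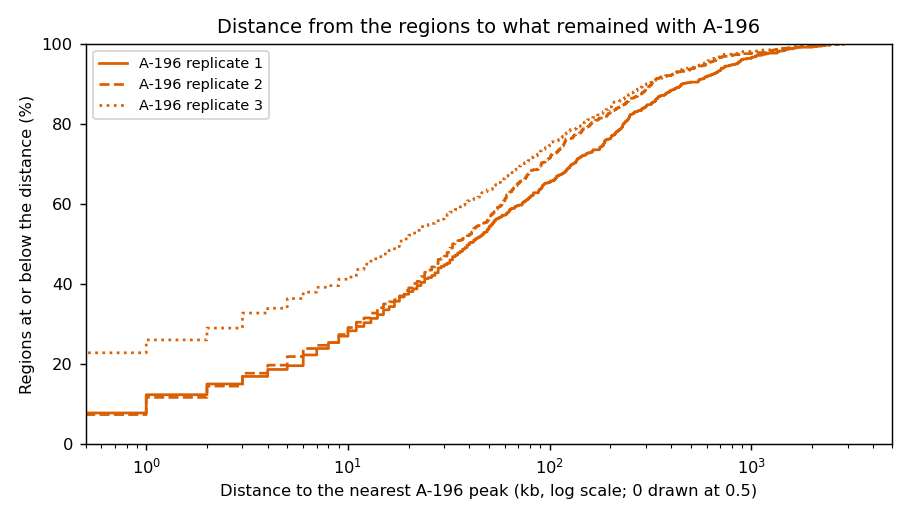
Cumulative share of the 745 regions (y axis, %) by distance to the nearest A-196 peak (x axis, kb, log scale, with 0 drawn at 0.5), 1 line per A-196 replicate. Replicate 3 starts highest, with 22.8% of the regions touched, and its median distance is 18 kb against 40 and 33 kb.

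The peaks that held the regions were of moderate width in the controls and narrower after the depletion. The median width of the enclosing peak was 13 kb in each DMSO library, 17, 16, 16 and 16 kb in the siNC libraries, and 11, 11, 11 and 10 kb in the siSUV420H1 libraries. All 4 siSUV420H1 medians lay below all 4 siNC medians. Region by region, the enclosing peak was narrower in every siSUV420H1 library than in every siNC library for 410 regions (55.0%), wider for 26 (3.49%), and the groups overlapped for 309 (41.5%). Over all 4103 regions covered in the controls and in siSUV420H1 cells the shares were 51.2% narrower and 9.21% wider, so the share of narrowed peaks among these regions was near the background. Kept therefore means that a peak was still called over the region, whether or not the domain kept its width.

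Less of the surroundings lay under peaks as well. Peaks covered 42.1% ± 1.31 of the 10 kb on each side of the regions in DMSO cells (SD, n = 3), 11.1% ± 4.49 in A-196 cells (SD, n = 3), 50.9% ± 0.326 with siNC and 31.8% ± 0.777 with siSUV420H1 (SD, n = 4 each). The lowest DMSO library had 40.9% and the highest A-196 library, replicate 3, had 16.3%, and the highest siSUV420H1 library had 32.8% against 50.5% in the lowest siNC library. Since the edges of the regions follow from the choice, these values are a description. Around all 4103 regions covered in the controls and in siSUV420H1 cells, the same flanks were covered over 47.5% ± 1.61 in DMSO cells and 21.0% ± 6.86 in A-196 cells (SD, n = 3), and over 45.1% ± 0.362 with siNC and 25.9% ± 1.55 with siSUV420H1 (SD, n = 4). At 30 kb from the edges, 24.0% to 26.3% of positions were covered in the DMSO libraries, 6.85% to 10.7% in the A-196 libraries, 26.8% to 27.3% in the siNC libraries and 16.2% to 16.6% in the siSUV420H1 libraries.

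**Figure D3:**
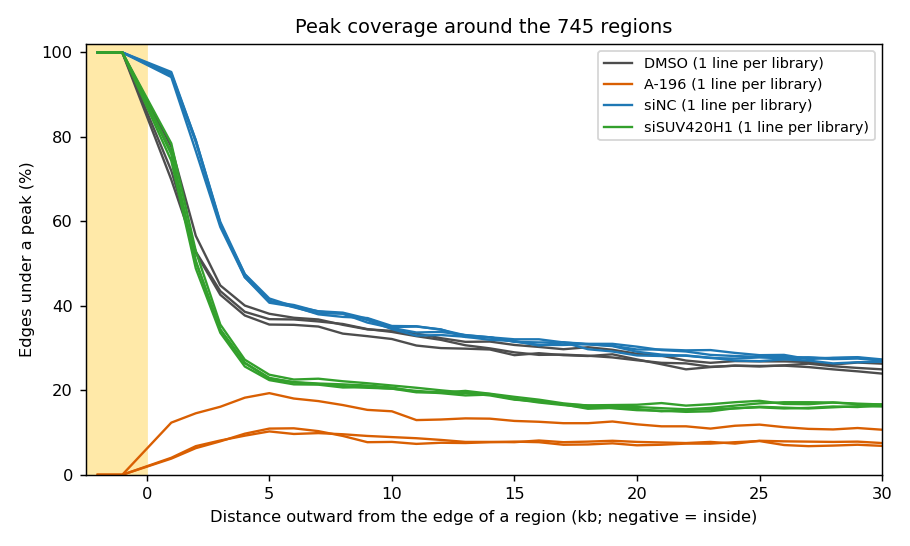
Share of region edges with a peak (y axis, %) by distance outward from the edge (x axis, kb, negative values and shading inside the region), 1 line for each of the 14 libraries, coloured by group. Values inside the regions are 100% or 0% by the choice of regions. Outside, the A-196 lines lie lowest at every distance, and at 30 kb the siNC and DMSO lines lie above the siSUV420H1 lines.

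Of the 745 regions, 229 (30.7%) overlapped the span of a protein-coding gene, 180 (24.2%) overlapped only other genes, mainly long non-coding RNAs, and 336 (45.1%) overlapped no annotated gene. The share over coding genes was 25.4% for regions lost in both arms, 28.9% for regions covered in all 14 libraries and 30.7% for all regions covered in the 7 controls, so the regions were close to the background in this respect. In 211 cases the region lay wholly inside a coding span; exons and introns were not analysed here. The 208 coding genes overlapped had a median span of 165 kb, against 77.5 kb for the coding genes over all regions covered in the 7 controls and 24.1 kb for all coding genes. It was 226 kb for those over mirror regions, 102 kb for those over regions lost in both arms and 60.6 kb for those over regions covered in all libraries. A long gene is more likely to be overlapped by any region, which holds for each of these overlapped sets. The cause of the differences between the sets was not tested.

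The regions were spread over every chromosome except Y. The share of control-covered bins that lay in them ran from 1.17% on chromosome 19 (6 regions, 47 kb of 4004 kb) to 10.0% on chromosomes 14 and 15 (29 and 22 regions). Chromosomes 22, 21 and X followed chromosome 19 at 2.11%, 2.53% and 2.82%. On chromosome 4, 64 regions took 9.07% of the control bins. On chromosome 19, which is rich in zinc finger genes, 2594 kb were in regions covered in all 14 libraries and 19 kb in regions lost in both arms. There were 4 regions (0.537%) in the outer 1 Mb of a chromosome, beside 0 of the 965 regions lost in both arms, 0.806% of the mirror regions, 2.88% of the regions covered in all libraries and 1.28% of all regions covered in the controls. Of the 745 regions, 197 had another within 100 kb and 44 within 10 kb. The same counts for the compared sets are not given here, so no grouping is read from them. All shares in this paragraph rest on the same libraries and are given without a test.

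**Figure D4:**
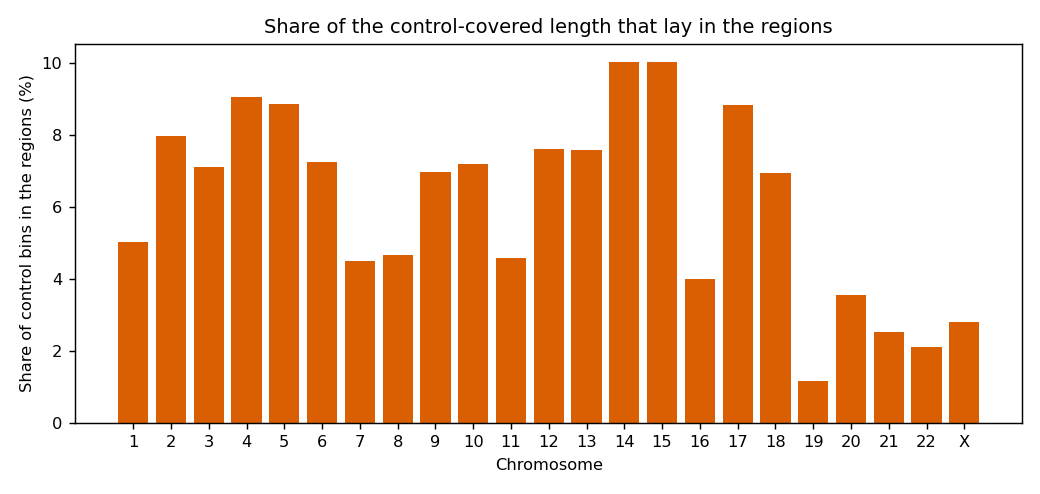
Share of the bins covered in all 7 controls that lay in the 745 regions (y axis, %), by chromosome (x axis). The bar of chromosome 19 is the lowest at 1.17%, and chromosomes 14 and 15 are highest at 10.0% each; chromosome Y, with 36 kb of control bins and no region, is not drawn.

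The longest region, 26 kb, lay on chromosome 21 (27674001 to 27700000) over the non-coding gene LINC01673, 702 kb from the nearest coding gene. Its peak measured 33, 30 and 33 kb in DMSO cells, 26, 29, 28 and 28 kb with siNC, and 31 kb in each siSUV420H1 library. The siSUV420H1 values lie above those of siNC and within those of DMSO. The nearest A-196 peak was 153, 165 and 87 kb away. A second long region of 16 kb lay on the same chromosome (27564001 to 27580000), 592 kb from the nearest coding gene, and a peak of A-196 replicate 3 touched its edge.

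The second longest, 25 kb on chromosome 3 (99890001 to 99915000), lay in the overlapping genes CMSS1 and FILIP1L. Its peak measured 41, 40 and 38 kb in DMSO cells, 29, 28, 29 and 30 kb with siNC and 28, 27, 25 and 26 kb with siSUV420H1. Over the whole of CMSS1 (chromosome 3, 99817862 to 100181732), peaks covered 155, 152 and 149 kb in DMSO cells and 40, 31 and 38 kb in A-196 cells. They covered 105, 113, 112 and 111 kb with siNC and 110, 122, 104 and 110 kb with siSUV420H1, and these groups overlapped. A second region of 8 kb in the same genes (100002001 to 100010000) was touched by A-196 peaks of replicates 1 and 3.

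CAST, which encodes calpastatin, the inhibitor of calpain proteases, held 3 regions (chromosome 5, 95961429 to 96774683). They measured 14 kb (96021001 to 96035000), 5 kb (96176001 to 96181000) and 17 kb (96219001 to 96236000), and the nearest A-196 peaks were 35 to 39, 93 to 101 and 136 to 144 kb away. Peaks covered 96, 110 and 92 kb of the gene in DMSO cells and 11, 5 and 8 kb in A-196 cells. With siNC they covered 200.0, 199, 219 and 213 kb, and with siSUV420H1 150, 134, 149 and 162 kb. The mean was 99.3 kb ± 9.45 (SD, n = 3) in the DMSO and 208 kb ± 9.84 (SD, n = 4) in the siNC libraries, so the controls of the arms did not overlap at this gene. Every siSUV420H1 library was below every siNC library.

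PRR16 (chromosome 5, 120464278 to 120794594) held a 14 kb region (120598001 to 120612000) that was far from any remaining peak, at 606, 1335 and 606 kb from the nearest A-196 peak. Peaks covered 21, 20 and 16 kb of the gene in DMSO cells and none in A-196 cells. They covered 27, 31, 31 and 39 kb with siNC and 28, 28, 25 and 25 kb with siSUV420H1, and these groups overlapped.

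**Figure D5:**
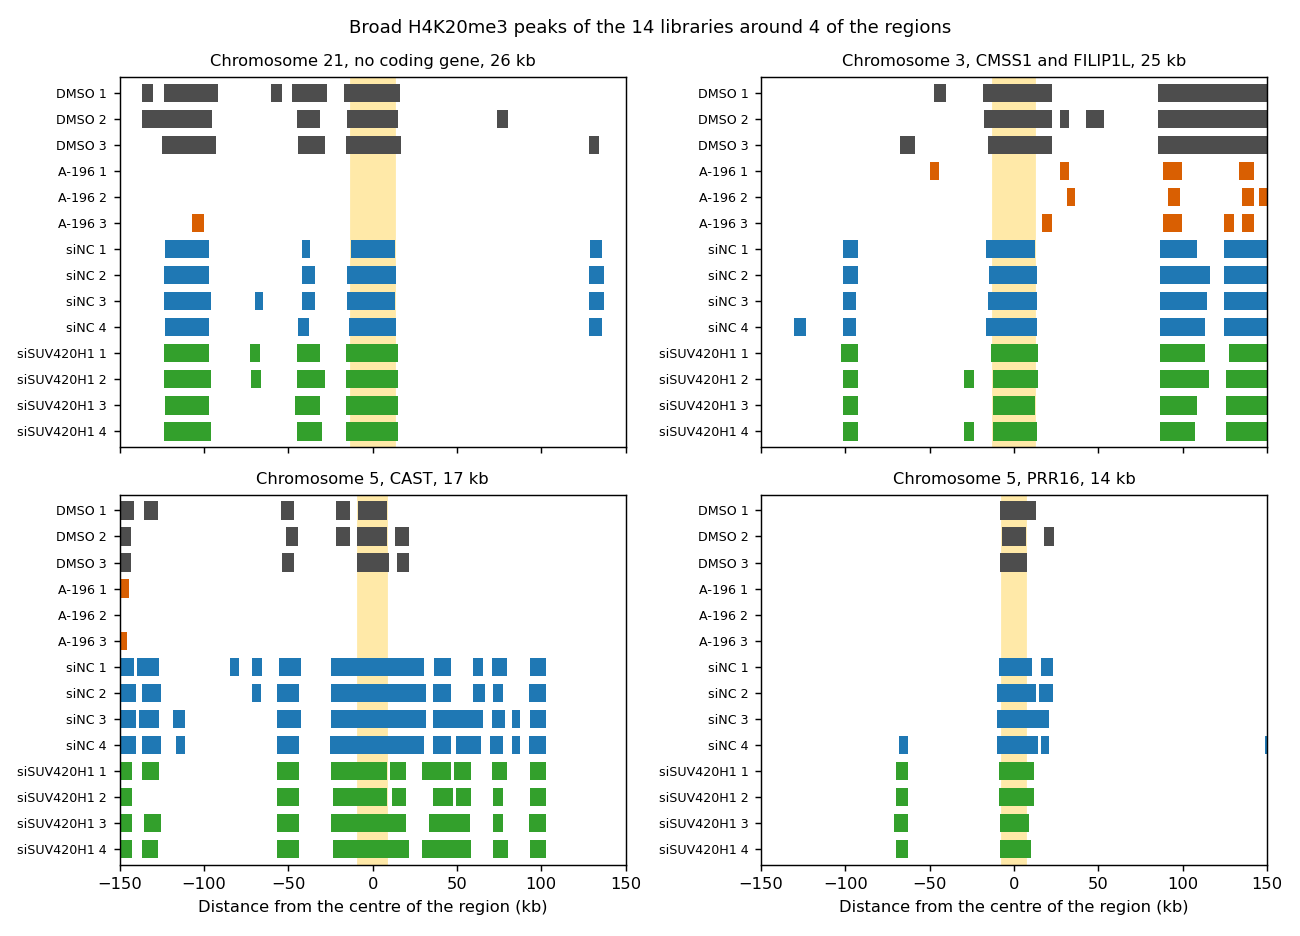
Broad H4K20me3 peaks (bars) of the 14 libraries, 1 row per library coloured by group, within 150 kb of the centre of 4 regions (x axis, kb from the centre), with the region shaded. The regions of 26 kb on chromosome 21, 25 kb in CMSS1 and FILIP1L, 17 kb in CAST and 14 kb in PRR16 carry bars across the shading in the 11 control and siSUV420H1 rows and none within it in the 3 A-196 rows.

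Genes of axon guidance, which steer growing nerve fibres, held regions in 3 of the 9 members of that list overlapped by control regions: SEMA3A, UNC5C and EPHA5. Regions lost in both arms overlapped 2 of the 9, and so did regions covered in all 14 libraries. Over all coding genes the share was 14.4% for the regions described here, and a list of 9 is too short to compare with it. SEMA3A, a secreted semaphorin, had 3 regions of 6, 8 and 14 kb, and the last (chromosome 7, 84410001 to 84424000) lay in peaks of 37, 18 and 42 kb in DMSO cells, of 61, 39, 74 and 37 kb with siNC and of 30 kb in each siSUV420H1 library, narrower than every siNC peak. Over the gene, peaks covered 223, 232 and 206 kb in DMSO cells and 29, 33 and 32 kb in A-196 cells. They covered 161, 171, 201 and 158 kb with siNC and 76, 87, 65 and 82 kb with siSUV420H1, where the groups did not overlap either. UNC5C, a netrin receptor, had 1 region of 8 kb (chromosome 4, 95285001 to 95293000). Its covered length was 9 kb in each DMSO library, 5, 0 and 0 kb in A-196 cells, 19, 19, 19 and 18 kb with siNC and 25, 25, 28 and 28 kb with siSUV420H1, above every siNC library. EPHA5, an ephrin receptor, had 6, 12 and 8 kb in DMSO cells, none in A-196 cells, 48, 52, 52 and 49 kb with siNC and 23, 27, 24 and 24 kb with siSUV420H1.

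CEP128, a centriolar protein gene, held 3 regions and had 97, 106 and 98 kb in DMSO cells, 24, 35 and 42 kb in A-196 cells, 55, 70, 71 and 64 kb with siNC and 75, 74, 72 and 72 kb with siSUV420H1. As at UNC5C, every siSUV420H1 value was above every siNC value, here by as little as 1 kb, which is 1 step of the grid.

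NFIL3, a leucine zipper transcription factor with 2 regions, was covered over 26, 18 and 23 kb in DMSO cells, 8, 6 and 7 kb in A-196 cells, 38 kb in each siNC library and 33, 25, 25 and 17 kb with siSUV420H1. ESR1, the oestrogen receptor alpha gene, had 62, 61.3 and 59.3 kb in DMSO cells and 13, 10 and 33 kb in A-196 cells. With siNC it had 75.3, 79.3, 80.3 and 73.3 kb and with siSUV420H1 55.3, 42.3, 48.3 and 49.3 kb. Both of its regions were 5 kb pieces, one touched by a peak of A-196 replicate 3 and the other by a peak of replicate 2. In GTF2F2, which encodes a subunit of TFIIF, the 2 regions of 11 and 9 kb also cover parts of KCTD4, a gene inside its span, and lay 33 kb or more from any A-196 peak.

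At MKLN1 and TANC2 the covered length of the gene overlapped between siSUV420H1 and siNC libraries. MKLN1, which encodes muskelin, had 45, 41 and 39 kb in DMSO cells and 11, 11 and 33 kb in A-196 cells, and 47, 47, 48 and 52 kb with siNC beside 48, 47, 49 and 51 kb with siSUV420H1. TANC2, a scaffold protein gene, had 35, 30 and 35 kb in DMSO cells and 9, 14 and 20 kb in A-196 cells, and 58, 61, 62 and 58 kb with siNC beside 60, 61, 59 and 60 kb with siSUV420H1. Peaks of A-196 replicate 3 touched both TANC2 regions, while those of MKLN1 lay 12 kb or more from any A-196 peak. In all, 27 coding genes held 2 or more regions. Others among them were MAGI3, EHBP1, CD96, FSTL5, SUGCT, SUPT3H, SPIDR, GLIS3, ANXA8, ADAM12, PLCZ1, STARD13, FRMD6 and COL4A6.

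In 11 genes the regions covered 25% or more of the span. ZNF596, a zinc finger gene near the end of the short arm of chromosome 8 (232137 to 247340), led those that hold several regions with 72.3%. It was covered over 15.2, 11.3 and 14.3 kb in DMSO cells, 0, 0 and 0.34 kb in A-196 cells, and over its whole 15.2 kb in all 8 libraries of the siRNA arm. IBSP, which encodes bone sialoprotein, had 54.3% of its span in a 7 kb region (chromosome 4, 87804001 to 87811000). It had 10.4, 9.44 and 8.44 kb in DMSO cells, none in A-196 cells, 9.44, 10.4, 10.4 and 10.4 kb with siNC and 9.44, 8, 9.44 and 8 kb with siSUV420H1, and A-196 peaks lay 3 kb from the region in all 3 replicates. ZNF555 on chromosome 19 had 52.6%, with 14.5, 13.5 and 13.5 kb in DMSO cells, 0.471, 0 and 3.53 kb in A-196 cells, 17.5, 17.5, 17.5 and 16.5 kb with siNC and 16.5, 16.5, 17.5 and 16.5 kb with siSUV420H1. KRTAP2-2, KRTAP2-3 and LOC124905366 lay wholly inside a region. The others were USF1, LRRC58, KCTD4 and the pregnancy-specific glycoprotein genes PSG7 and PSG2, close copies whose peaks are uncertain in the same way as those of the KRTAP2 genes.

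Zinc finger genes, many of which lie in H4K20me3-marked clusters, were a small share of the genes overlapped. Of 592 C2H2 zinc finger genes, 267 were overlapped by regions covered in all controls, and the regions described here overlapped 8 of these (3.0%): ZNF596, ZNF555, ZSCAN30, ZBTB38, ZNF341, ZNF391, ZNF503 and ZNF782. Over all coding genes the share was 208 of 1443 (14.4%). Regions lost in both arms overlapped 4 of the 267 (1.5%), beside 15.1% of all coding genes, and regions covered in all 14 libraries 195 (73.0%), beside 37.4%. A low share was thus common to both kinds of lost region. ZSCAN30 was covered over 10.2, 12.2 and 18.2 kb in DMSO cells, 0, 5.94 and 11.9 kb in A-196 cells, 29.2, 30.2, 23.2 and 24.2 kb with siNC and 35.2, 33.2, 36.2 and 32.2 kb with siSUV420H1.

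The other gene lists were overlapped too rarely by control regions to be compared with the 14.4% over all coding genes. No region overlapped any of the 12 interferon-stimulated genes, the 5 chemokines, the 5 keratins or the 18 clustered protocadherins that control regions overlapped. Regions lost in both arms overlapped 5 of these interferon-stimulated genes, 2 chemokines, 2 keratins and 0 clustered protocadherins. For regions covered in all 14 libraries the counts were 1, 1, 0 and 16 in the same order. Among 10 keratin-associated protein genes, KRTAP2-2 and KRTAP2-3 were overlapped, and among 11 genes of the epidermal differentiation complex SPRR2G, a small proline-rich protein of the cornified envelope. UGT2B17, a steroid glucuronidating enzyme and 1 of 5 UGT and cytochrome P450 genes in control regions, held a 6 kb region (chromosome 4, 68549001 to 68555000). It was covered over 28.3, 26.0 and 29.3 kb in DMSO cells, none in A-196 cells, 13, 20, 22 and 20 kb with siNC and 9, 8, 7 and 9 kb with siSUV420H1. Of 24 solute carriers only SLC9A9 was overlapped, of 17 ion channel genes KCNU1, and of 5 neuronal adhesion genes CSMD3 and TENM2, an adhesion protein gene with 118, 126, 122 and 122 kb under siNC and 68, 58, 57 and 53 kb under siSUV420H1 peaks. None of the 7 receptor-type tyrosine phosphatases, 5 other protocadherins and cadherins, 3 imprinted genes, 1 olfactory receptor and 1 heterochromatin gene in control regions was overlapped, and no histone gene lay in a control region.

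Of the squamous markers, TP63, the master regulator of squamous epithelium, held a 5 kb region (chromosome 3, 189709001 to 189714000) inside DMSO peaks of 108, 105 and 103 kb. A-196 peaks touched it in replicates 2 and 3 and lay 1 kb away in replicate 1. The region was thus a gap within a domain that partly remained, and the whole gene carried 230, 225 and 199 kb in DMSO cells and 66.3, 55.3 and 108 kb in A-196 cells. In the siRNA arm it carried 113, 121, 122 and 123 kb with siNC and 56.3, 53.3, 48.3 and 50.3 kb with siSUV420H1. Less of the whole gene thus lay under peaks with siSUV420H1 too. No marker of fibroblasts, endothelium or leukocytes was overlapped. None of these markers had a peak in every control library, which the choice of regions requires, so their absence was fixed in advance. Among the squamous markers, only TP63 had a peak in every DMSO and every siNC library. The contrast between TP63 and these other markers therefore cannot bear on cell type, and nothing is read from it. A further region, picked out after its values were seen, lay 1.24 kb from KRT7, a keratin of simple epithelia (chromosome 12, 52220001 to 52232000, 12 kb), over LINC00592 and TMT1AP1, and was 110 kb or more from every A-196 peak.

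Across the 208 genes, 190 had a shorter covered length in all A-196 libraries than in any DMSO library (91.3%), beside 53.3% of the 1543 coding genes with peaks in all 7 controls. The regions were chosen on that contrast, and nothing is read from the difference. In 71 of the 208, no A-196 library had a peak anywhere in the span, which the choice of regions also favours. The same count over the 1543 genes is not given here, so nothing is read from it. Covered length was lower in every siSUV420H1 than in every siNC library for 97 (46.6%, background 46.9%) and higher for 17 (8.17%, background 12.1%). The share of lower genes was near the background. Both orders together, lower with A-196 and higher with siSUV420H1, were seen at 13 genes (6.25%, background 2.92%), SNRPB2 among them. The choice of regions favours the first of these. It also required a peak over each region in every siSUV420H1 library, which the background genes did not need. Nothing is read from these shares.

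The mirror regions, lost after the depletion and kept with A-196, are described for comparison, without a test. The DMSO peaks around them had a median width of 68.5 kb and the siNC peaks 24 kb, against 13.3 and 17 kb for the 745 regions. For regions lost in both arms these medians were 18 and 16.2 kb, and for regions covered in all libraries 35 and 26 kb. Of the 124 mirror regions, 17 (13.7%) overlapped a coding gene. The mirror count rose to 212 without A-196 replicate 1 and to 273 without replicate 2, and remained below the count of the regions described here in each case, at 884 and 814.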

How the data were processed

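H4K20me3 CUT&RUN libraries of HN-SCC-151 cells (3 DMSO, 3 A-196, 4 siNC, 4 siSUV420H1) were grouped by their titles; the other 10 of the 24 samples were not analysed here. The deposited lists give no scores or counts, only the other columns of a peak list: chromosome, start and end in base pairs, which the authors left on a 1000 bp grid, the narrowest peak being 5 kb and the smallest gap 2 kb. The build was hg38, and the tools named in the submitters' processing notes are bedtools 2.30.0, Bowtie, cutadapt 4.4 and Picard 2.27.3. The names of the lists show duplicate removal and peaks called in each library against 1 IgG library per arm; the peak caller is not given in the sources used here.

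Regions, gene overlaps, distances and motif matches were computed with Python 3.11.15 and numpy 2.4.6, and the region caller was tested on simulated data. Coordinates are 1-based on hg38. Gene spans, strands and promoters came from RefSeq tables of GRCh38.p14; 15843 of 20037 coding genes had a promoter there. The members and gene lists were chosen with earlier results of these data known. Named genes were those over the 20 longest regions, with 2 or more regions, with 25% or more of their span in regions, or on a list; 1 item under this rule is not reported here. The planned exact permutation test of the covered share used the contrast that chose the regions, so its p-value is not given and no other test was made. Alternatives left out single libraries or changed the length rule, the number of libraries required, the peaks used and the chromosomes.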

Additional observations from a re-analysis of the deposited data

Results flagged for a closer look

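At CEP128 and UNC5C, every siSUV420H1 library had more of the gene under peaks than every siNC library, while every A-196 library had less than every DMSO library. The mean differences in the siRNA arm were 8.25 kb at CEP128 and 7.75 kb at UNC5C. Those with A-196, -66.7 kb and -7.33 kb, follow at least in part from the choice of regions, since 8 kb of the 9 kb covered at UNC5C in DMSO cells is the region itself. The difference between the arms was not tested. This order was seen at 13 of the 208 genes (6.25%), beside 2.92% of the 1543 coding genes with peaks in all 7 controls. The rule favours its A-196 side and also required siSUV420H1 peaks over each region, so nothing is read from these shares.

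The 4 libraries of each siRNA group were also compared with each other at 20 named genes. In 5 of 40 groups of 4, 3 libraries were equal and the other differed by 1 kb, the step of the grid. These were the siNC library with 18 kb at UNC5C, that with 16.5 kb at ZNF555 and that with 9.44 kb at IBSP, and the siSUV420H1 library with 17.5 kb at ZNF555 and that with 2.98 kb at USF1. The rule behind this marks about 1 in 20 groups by chance for continuous values; its rate for values on a grid was not measured, and genes outside the 20 were not checked.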

How the results depend on the processing

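The share of regions over a coding gene stayed between 28.9% and 33.6% under all 24 alternatives. Leaving out single libraries gave 747 to 1510 regions over 5422 to 11879 kb, and the highest values came without A-196 replicate 3. It gave 125 to 273 mirror regions (212 without A-196 replicate 1, 273 without replicate 2), and 39.9% to 45.7% of regions within 5 kb of an A-196 peak. With runs of 2 kb or more there were 1550 regions, 310 mirror regions and 70.3% within 5 kb. With runs of 10 kb or more there were 83 regions over 1007 kb, 8 mirror regions, 51.8% within 5 kb, and a mean coverage of 97.9% in siSUV420H1 libraries left out of the choice. Allowing a peak in at most 1 of 3 A-196 libraries gave 1714 regions over 13626 kb, 369 mirror regions and 76.2%. Peaks of 10 kb or more gave 69 mirror regions and 27.5%. Leaving out bins within 5 kb of a remaining peak gave 3599 kb, 81 mirror regions and 18.4%. That share can only hold regions exactly 5 kb from a peak, since the distance limit includes 5 kb and nearer bins were left out. Requiring at least 6 of 7 controls gave 40.2% within 5 kb. Apart from effects of the changed rule itself, the cause of these shifts was not tested. Weighted by region length, the mean enclosing widths were 13.7 kb for DMSO, 17.75 kb for siNC and 11.25 kb for siSUV420H1.

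The difference in control bins covered ran from -24.5 to -12.1 points without single libraries and was -20.3 points for medians. With the replicate block over numbers 1 to 3 it was -18.0 points; the numbers of the 2 arms share only a number and no stated dish. The lists give no depth, so no limit of detection can be set.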
